A study of Bos taurus with 3 samples.

Results

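The V1 sector of the vacuolar H+-ATPase (V-ATPase) was examined through 9 subunit genes, ATP6V1A, ATP6V1B1, ATP6V1B2, ATP6V1C1, ATP6V1D, ATP6V1E1, ATP6V1F, ATP6V1G1 and ATP6V1H, chosen by symbol from the 27270 genes of the count tables, each of which matched 1 row. The cells came from the ventral rumen sac of 3 newborn Holstein calves, sampled 1 day after birth. After the outer muscle was stripped, the tissue was dissociated enzymatically and 1 droplet library was made per calf; adult libraries were not analysed here. Barcodes with 500 to 4000 detected genes were kept, and 4695, 9746 and 9601 cells remained in calves 1, 2 and 3 after the other filters. These fell into epithelial cells (4584, 8778 and 7809 in calves 1, 2 and 3), endothelial cells (77, 553 and 673), fibroblasts (24, 342 and 412) and immune cells (10, 73 and 707). Of the 778 fibroblasts, 314 formed a cluster in which the myofibroblast markers scored above the fibroblast markers and which was led by ACTA2 and TPM2, genes of contractile cells; it was kept in the class, and results are also given without it.

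The V-ATPase is a rotary pump that couples ATP hydrolysis to the movement of protons across membranes. Its cytosolic V1 sector docks on the membrane sector V0, and together they acidify lysosomes, endosomes and the Golgi, or, at the plasma membrane of specialised cells, secrete acid. Subunits A and B form the catalytic head, D and F the rotor, E and G the stator stalks, C joins the stalks to V0, and H regulates the enzyme. Several subunits have isoforms: ATP6V1B1 is the form known from acid-secreting cells of the kidney and inner ear, ATP6V1B2 the widespread one.

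The libraries held 82263092, 89803289 and 106145091 unique molecular identifiers (UMIs) in all. Between 21 and 37 barcode sequences were shared by any pair of libraries. The classes bore their markers: the summed level of 9 epithelial markers was 178 to 215 UMIs per 10000 in epithelial cells, that of 6 endothelial markers 53.3 to 71.9 in endothelial cells, that of 6 fibroblast markers 289 to 384 in fibroblasts, and that of 7 immune markers 139 to 160 in immune cells. In calf 1 the fibroblasts were 24 and the immune cells 10, so values of these classes in this calf rest on few UMIs. The summed epithelial markers reached 117 UMIs per 10000 in fibroblasts, 24.3 in immune cells and 17.8 in endothelial cells. A level below is the UMIs of a gene per 10000 UMIs of all cells of a class in a calf; it is not scaled to transcript length, so it is compared between cells and not between genes. A positive share is the share of cells with at least 1 UMI of a gene after every cell was thinned at random to 2000 UMIs; cells below that depth were left out, 514 epithelial, 141 endothelial, 361 fibroblast and 94 immune cells.

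Of the 9 genes, ATP6V1B1 was the one with its highest level in the epithelium. Its epithelial level was 0.377, 0.642 and 0.120 UMIs per 10000 in calves 1, 2 and 3. Endothelial cells had 0.0279, 0.0412 and 0, fibroblasts 0.202, 0.0507 and 0, and immune cells 0, 0.0254 and 0.0112. Within each calf the epithelial level was the highest of the 4 classes, while across calves the epithelial value of calf 3 lay below the fibroblast value of calf 1, which came from 2 UMIs. The epithelium held 7013 ATP6V1B1 UMIs, whereas 11 were counted in endothelial cells, 6 in fibroblasts and another 5 in immune cells. After thinning, 6.39% of epithelial cells in calf 1 (95% exact Clopper-Pearson interval 5.69 to 7.15), 10.6% in calf 2 (9.98 to 11.3) and 2.18% in calf 3 (1.87 to 2.53) had an ATP6V1B1 UMI, so the calves differed by more than counting error. In endothelial cells the shares were 0 of 68, 0.813% and 0 of 602, where the zeros allow a share of up to 4.41% and 0.498%. Pooled over the calves, the share was 6.58% in epithelial cells, while endothelial cells had 0.344%, fibroblasts 0.480% and immune cells 0.287%, with median depths before thinning of 7666, 3991, 2088 and 4805 UMIs. Without thinning the pooled shares were 21.6%, 0.767%, 0.771% and 0.633%. Intervals and limits for zeros cover counting error only.

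ATP6V1A and ATP6V1B2, the other genes of the catalytic head, were not highest in the epithelium. ATP6V1A was at 0.318, 0.229 and 0.259 UMIs per 10000 in epithelial cells of calves 1, 2 and 3 and at 1.40, 0.585 and 0.555 in immune cells. The 3 immune values lay above the 3 epithelial values, and the highest of them came from 7 UMIs in the 10 immune cells of calf 1. Its mean level was 0.269 ± 0.0452 in epithelial cells (SD, n = 3 calves), 0.266 ± 0.111 in endothelial cells, 0.495 ± 0.184 in the fibroblasts and 0.845 ± 0.477 in the immune class. The epithelial and endothelial ranges overlapped, as did those of fibroblasts and immune cells. ATP6V1B2 was nearly level between calves in the epithelium, at 0.192, 0.200 and 0.208 UMIs per 10000. Its mean level was 0.200 ± 0.00802 in epithelial cells, 0.208 ± 0.0199 in endothelial cells, 0.401 ± 0.114 in the fibroblasts and 0.481 ± 0.0725 in the immune class, with overlap in the first pair and in the last pair. For both head genes the fibroblast and immune values lay above all epithelial and endothelial values. The share of B-subunit UMIs that were ATP6V1B1 was 66.3%, 76.3% and 36.6% in epithelial cells of calves 1, 2 and 3, and 2.27% ± 2.39 in immune cells (SD, n = 3 calves).

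The stator genes ATP6V1E1 and ATP6V1G1 and the joining subunit ATP6V1C1 were lowest or close to lowest in the epithelium. ATP6V1G1 was at 1.01, 1.20 and 1.14 UMIs per 10000 in epithelial cells and at 2.79, 2.82 and 2.74 in immune cells, and the epithelial range overlapped that of no other class. Its means in endothelial cells and fibroblasts were 2.19 ± 0.144 and 1.99 ± 0.133, and these ranges overlapped each other. For ATP6V1E1 the means were 0.634 ± 0.0715 in epithelial cells, 0.584 ± 0.0767 in fibroblasts, 1.09 ± 0.00973 in endothelial cells and 1.65 ± 0.322 in immune cells, so the epithelium and the fibroblasts overlapped and the other classes stood above them. ATP6V1C1, with 1785 UMIs in epithelial cells, was at 0.0879, 0.0862 and 0.111 UMIs per 10000 in calves 1, 2 and 3. Its epithelial range ended where the endothelial one began, at 0.111, and its means in fibroblasts and immune cells were 0.217 ± 0.124 and 0.282 ± 0.119. ATP6V1H, the regulatory subunit, had means of 0.188 ± 0.0114 in epithelial cells, 0.243 ± 0.0900 in endothelial cells, 0.361 ± 0.131 in the fibroblasts and 0.505 ± 0.254 in the immune class, and each class overlapped its neighbour in that order.

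The rotor genes differed from each other in their pattern. ATP6V1D was at 0.271, 0.260 and 0.230 UMIs per 10000 in epithelial cells, at 0.418, 0.499 and 0.716 in endothelial cells and at 0.798, 0.458 and 0.764 in immune cells. Its epithelial values lay below all endothelial and immune values, while fibroblasts ranged from 0.101, from 1 UMI in calf 1, to 0.567. ATP6V1F was at 2.43, 1.44 and 1.56 UMIs per 10000 in epithelial cells, at 3.32, 2.98 and 2.34 in endothelial cells, at 2.83, 1.84 and 1.68 in fibroblasts and at 1.79, 2.01 and 2.09 in immune cells. Each class overlapped its neighbour in the order of means, so no full order of classes could be set for ATP6V1F. Within each calf ATP6V1F was highest in endothelial cells, and its endothelial values all lay above its immune values. Its positive share in epithelial cells was 28.5% ± 6.99 (SD, n = 3 calves), and calf 1 stood above the others with 36.5%.

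**Figure D1:**
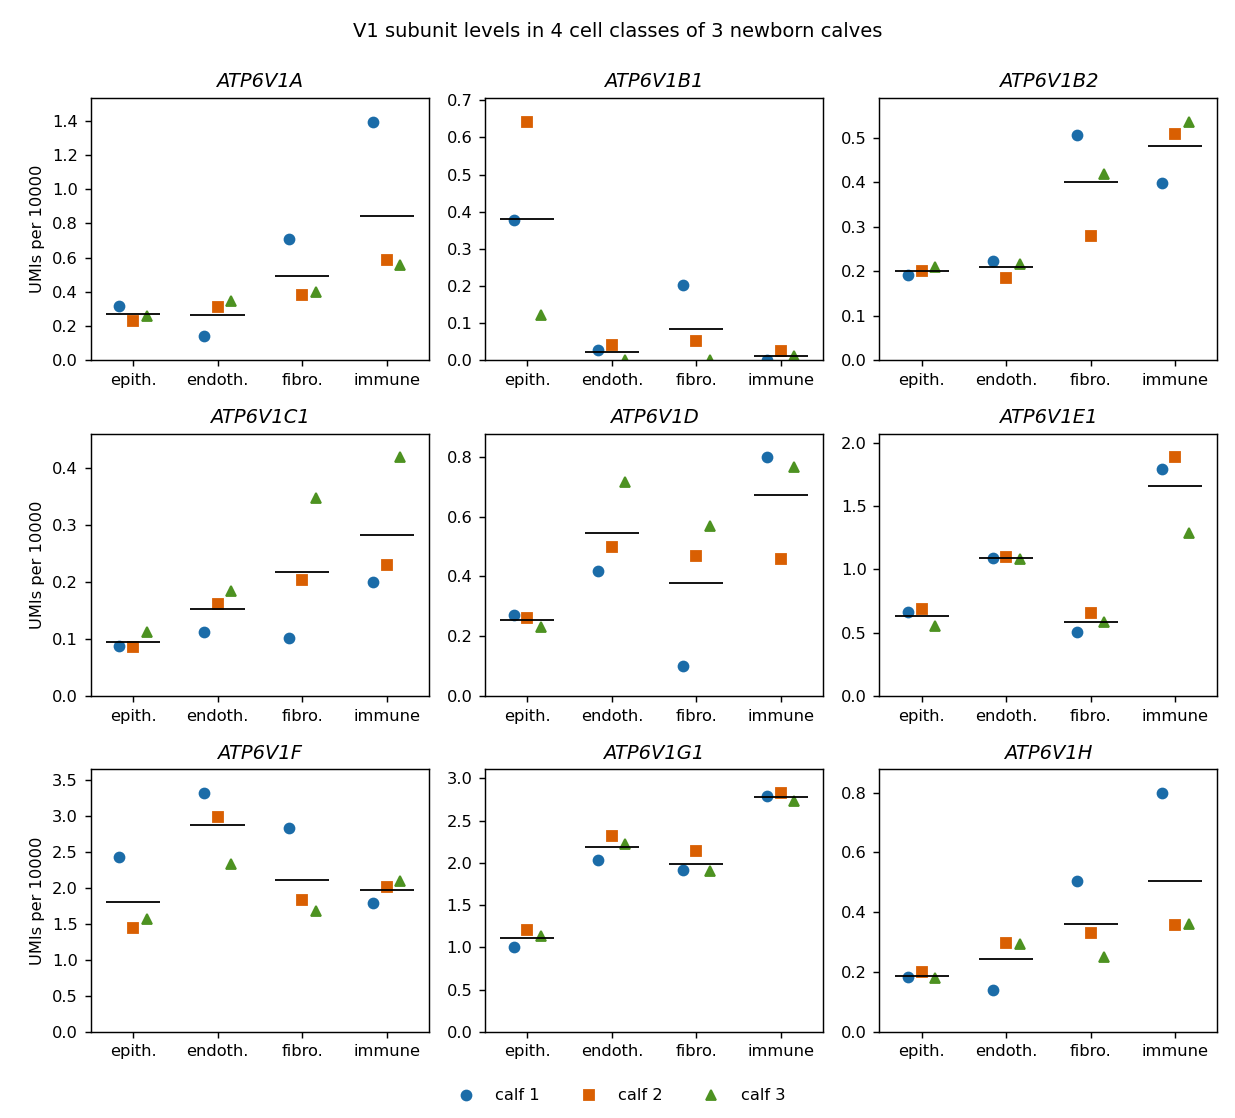
Levels of the 9 V1 genes in UMIs per 10000 (vertical axes, each starting at 0) in epithelial (epith.), endothelial (endoth.), fibroblast (fibro.) and immune cells; each symbol is 1 calf and the horizontal line is the mean of 3 calves. ATP6V1B1 is near 0 outside the epithelium apart from 1 fibroblast value, whereas ATP6V1G1 is lowest in epithelial cells, at 1.01 to 1.20.

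Summed over the 9 genes, V1 UMIs came to 4.95 ± 0.580 per 10000 in epithelial cells, 6.62 ± 0.660 in fibroblasts, 7.60 ± 0.264 in endothelial cells and 9.20 ± 0.668 in immune cells (SD, n = 3 calves). In thinned epithelial cells 39.6% ± 3.79 had a UMI of none of the 9 genes and 4.12% ± 0.920 had UMIs of 3 or more of them. In immune cells these shares were 17.6% ± 2.89 and 21.9% ± 6.08. The latter was 28.6%, 20.6% and 16.6% in calves 1, 2 and 3, from 7, 63 and 626 immune cells.

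The classes were compared across calves by summing the UMIs of each calf and class, 12 sums in all, and fitting every gene by the quasi-likelihood test of edgeR, with a block for the calf and Benjamini-Hochberg adjustment over the 10259 genes tested. All 9 members passed the filter on low counts. Between epithelial and endothelial cells, ATP6V1B1 was higher in the epithelium by 4.70 on the log2 scale (standard error 0.469, adjusted p = 1.49e-07, edgeR). Lower in the epithelium were ATP6V1D by -0.74 on the same scale (standard error 0.260, adjusted p = 0.0270, edgeR) and ATP6V1G1 by -0.61 (standard error 0.187, adjusted p = 0.0121, edgeR). The other 6 did not pass the threshold, with differences from -0.42 for ATP6V1E1 to 0.36 for ATP6V1B2. Thus 3 of 9 members were called in a comparison where 46.9% of all genes were (22.7% higher and 24.2% lower in epithelial cells), which is near the background. The calls of ATP6V1D and ATP6V1G1 were both lost without calf 2, without calf 3 and without the calf block, whereas ATP6V1B1 was called in every alternative fit, between 2.00 and 6.03.

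Against fibroblasts, ATP6V1B1 was higher in epithelial cells by 3.85 on the log2 scale (standard error 0.567, adjusted p = 2.82e-05, edgeR), and ATP6V1C1 was lower, at -0.94 (standard error 0.306, adjusted p = 0.0216, edgeR). The 7 others did not pass, and their differences ran from -0.45 for ATP6V1B2 to 0.46 for ATP6V1E1. The members called were 2 of 9, against 37% of all genes (17.8% higher and 19.2% lower in the epithelium), so the family was called no more often than genes at large. Without calf 2 or calf 3 the call of ATP6V1C1 was lost. Without the 314 cells of the myofibroblast-led cluster, ATP6V1B1 and ATP6V1C1 kept their calls, at 3.60 and -1.49, and ATP6V1E1 was also higher in epithelial cells, by 0.99 (adjusted p = 0.00765, edgeR). In that cluster the ATP6V1E1 level was 1.06, 0.871 and 0.762 UMIs per 10000 in calves 1, 2 and 3, above the 0.283, 0.474 and 0.405 of the other fibroblasts. The fibroblasts of calf 1, in which 2 ATP6V1B1 UMIs were found, carried the 117 UMIs per 10000 of epithelial markers given above; the part of epithelial RNA in these 2 UMIs was not tested.

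Against immune cells most of the family was lower in the epithelium. The largest of these differences was that of ATP6V1C1, at -1.42 on the log2 scale (standard error 0.296, adjusted p = 0.000701, edgeR), and the smallest was that of ATP6V1H, at -0.76 (standard error 0.284, adjusted p = 0.0346, edgeR). ATP6V1A, ATP6V1B2, ATP6V1D, ATP6V1E1 and ATP6V1G1 lay between them, from -1.06 to -0.98. ATP6V1B1 went the other way by 4.04 (standard error 0.574, adjusted p = 1.41e-05, edgeR), and ATP6V1F did not pass, with a difference of 0.04 (95% interval -0.42 to 0.49). Members lower in epithelial cells were thus 7 of 9, where 22.7% of all genes were lower and 48% were called in either direction (25.4% higher). The median difference of the 9 members was -0.99, beside 0.11 over all genes. Without calf 3, which held 707 of the 790 immune cells, 2 of the 7 lower calls were made, those of ATP6V1E1 and ATP6V1G1, and the remaining differences kept their sign. Calls fell for genes at large in that fit, with 1158 of 7674 genes lower, against 2327 of 10259 in the main fit. Without calf 2 the calls of ATP6V1E1 and ATP6V1H were lost (adjusted p = 0.0582 and 0.0885, edgeR), so that of the 7 lower members only ATP6V1G1 was called whichever calf was left out. ATP6V1H was also lost without the calf block (adjusted p = 0.0839, edgeR), in the bias-adjusted fit and with no filter on low counts. Its call was lost too when sums of fewer than 30 cells were left out and when only the 6 sums of the 2 classes were fitted.

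**Figure D2:**
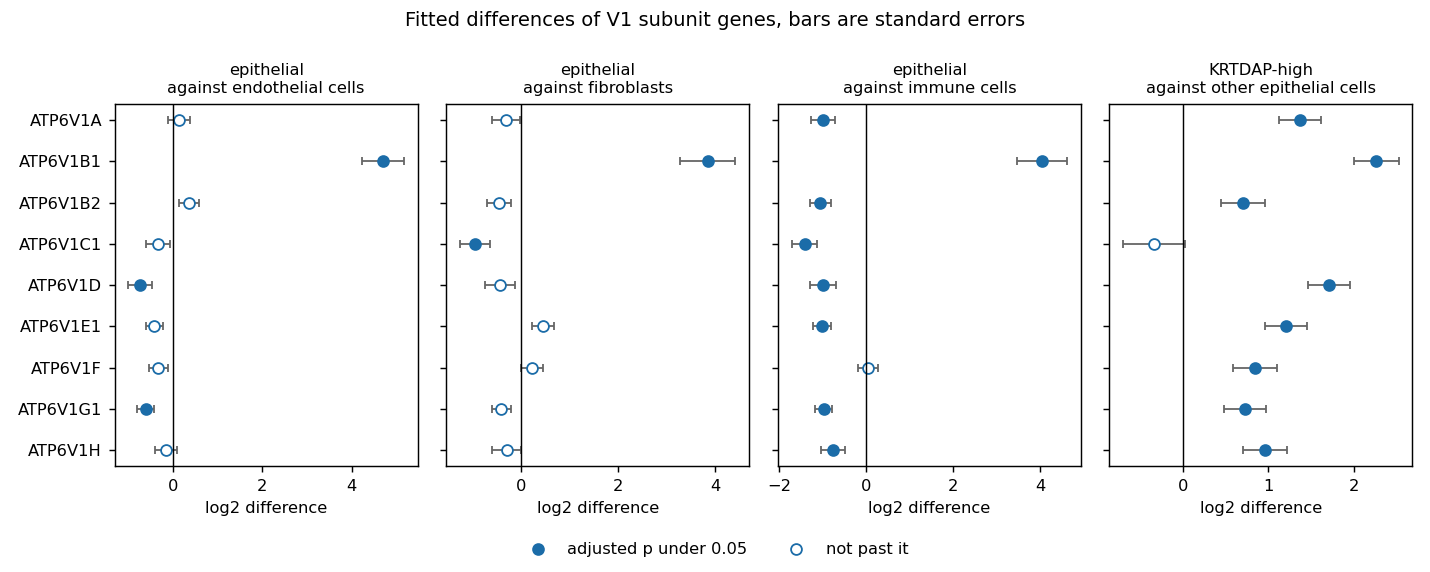
Fitted log2 differences (horizontal axes) of the 9 V1 genes in the 4 comparisons, with standard errors as bars; filled points have an edgeR adjusted p under 0.05 and open points do not. ATP6V1B1 is to the right of 0 in every panel, and in KRTDAP-high cells ATP6V1C1 is the only open point.

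Scaling to total UMIs without TMM factors moved the median of all genes from -0.00 to -0.38 against endothelial cells, from 0.04 to -0.37 against fibroblasts and from 0.11 to -0.17 against immune cells. Under that scaling ATP6V1A and ATP6V1B2 changed sign against endothelial cells, ATP6V1F changed sign against fibroblasts and against immune cells, and the members called lower were 5, 4 and 7. The genes called higher and lower in epithelial cells went from 2325 and 2482 to 1572 and 3778 against endothelial cells, from 1827 and 1969 to 1045 and 3085 against fibroblasts, and from 2601 and 2327 to 1953 and 2927 against immune cells. The direction of ATP6V1B1 was the same under each scaling.

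Within the epithelium, cells with at least 2 KRTDAP UMIs among 2000 thinned UMIs were called KRTDAP-high. KRTDAP encodes a keratinocyte differentiation-associated protein of the suprabasal layers of stratified epithelium. There were 174, 244 and 9 such cells in calves 1, 2 and 3, against 4273, 8309 and 7648 other epithelial cells, so calf 3 contributed 76676 UMIs from 9 cells. The share of KRTDAP-high cells was 3.91% (exact 95% interval 3.36 to 4.52), 2.85% (2.51 to 3.23) and 0.118% (0.0538 to 0.223). Just outside the gate, 151, 267 and 14 cells had 1 KRTDAP UMI, and just inside it 44, 39 and 3 cells had 2. In KRTDAP-high cells 7 spinous and differentiation markers, KRTDAP among them, summed to 321 to 532 UMIs per 10000, against 7.40 to 20.6 in other epithelial cells. The high cells of calves 1 and 2 were deeper, with medians of 15015 and 11727 UMIs against 10347 and 6710, and their median mitochondrial share was 8.72%, 10.3% and 8.19% in calves 1, 2 and 3 against 5.33%, 5.60% and 5.65%. Of other cell types, 5 of the 7 immune markers were at 0 in the high cells and the list summed to at most 0.130 UMIs per 10000, and 6 fibroblast markers summed to at most 1.20, against 2.75 to 4.25 in other epithelial cells. The part of depth and mitochondrial share in the differences below was not tested.

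The level of 8 of the 9 V1 genes, in which deep cells weigh more, was above that of the other epithelial cells of the same calf in 3 of 3 calves. At equal depth the positive share was above that of the other cells in 3 of 3 calves for ATP6V1A, ATP6V1B1, ATP6V1E1 and ATP6V1F. ATP6V1B1 showed the largest difference of the 9. Its level was 1.44, 2.05 and 0.913 UMIs per 10000 in the high cells of calves 1, 2 and 3, against 0.318, 0.572 and 0.120 in the others. The ratio within a calf was 4.52, 3.58 and 7.64, and the groups did not overlap. After thinning, 22.4%, 35.7% and 33.3% of high cells had an ATP6V1B1 UMI, against 5.73%, 9.89% and 2.14% of other cells; without thinning the pooled shares were 76.1% and 20.8%. High cells held 19.9%, 15.0% and 0.846% of the epithelial ATP6V1B1 UMIs of the thinned cells in calves 1, 2 and 3, so most of its UMIs lay in cells below the gate. Calf 3 had the lowest ATP6V1B1 level among the other epithelial cells as well as over the whole epithelium.

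ATP6V1A was at 0.602, 0.600 and 0.522 UMIs per 10000 in the high cells of calves 1, 2 and 3 and at 0.301, 0.210 and 0.258 in other cells. The ratio within a calf was 2.00 to 2.86. ATP6V1B2 moved least surely among the head genes, with 0.234, 0.305 and 0.522 in high cells against 0.190, 0.195 and 0.208. The rotor subunit gene ATP6V1D was at 0.725, 0.779 and 0.391 in high cells and at 0.246, 0.234 and 0.229 in other cells, the value of calf 3 resting on 3 UMIs. ATP6V1F was at 3.20, 3.04 and 2.61 in high cells against 2.39, 1.37 and 1.56. Among the stator genes, ATP6V1E1 was at 1.25, 1.40 and 1.43 in high cells against 0.625, 0.654 and 0.553, and none of its values overlapped between groups. ATP6V1G1 was at 1.38, 1.70 and 2.48 against 0.988, 1.18 and 1.14, and ATP6V1H at 0.272, 0.369 and 0.391 against 0.180, 0.192 and 0.180. In calf 3 the values of high cells rest on 7 UMIs for ATP6V1B1, 4 each for ATP6V1A and ATP6V1B2 and 3 for ATP6V1H. ATP6V1C1 alone was lower in the high cells of each calf, at 0.0575, 0.0706 and 0 against 0.0900, 0.0872 and 0.111; the 0 in calf 3 allows up to 0.391 and therefore cannot be told from the other cells.

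The positive shares at equal depth did not follow the levels in every calf for ATP6V1B2, ATP6V1D, ATP6V1G1 and ATP6V1H. ATP6V1C1 had the lower share as well as the lower level in the high cells of each calf, with 0 of 9 cells in calf 3. In calf 1 the share was 17.2% in high cells and 18.4% in other cells for ATP6V1G1, 2.30% and 2.97% for ATP6V1H, and 4.02% and 4.07% for ATP6V1B2. In calves 2 and 3 these genes had the higher share in high cells. ATP6V1D had shares of 12.1% and 15.2% in high cells of calves 1 and 2 against 4.54% and 4.43%, and 0 of 9 cells in calf 3, which allows up to 33.3%. For ATP6V1A the shares were 12.1%, 11.5% and 22.2% against 6.01%, 4.30% and 4.73%, and for ATP6V1E1 20.1%, 25.4% and 33.3% against 11.5%, 11.7% and 10.2%.

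**Figure D3:**
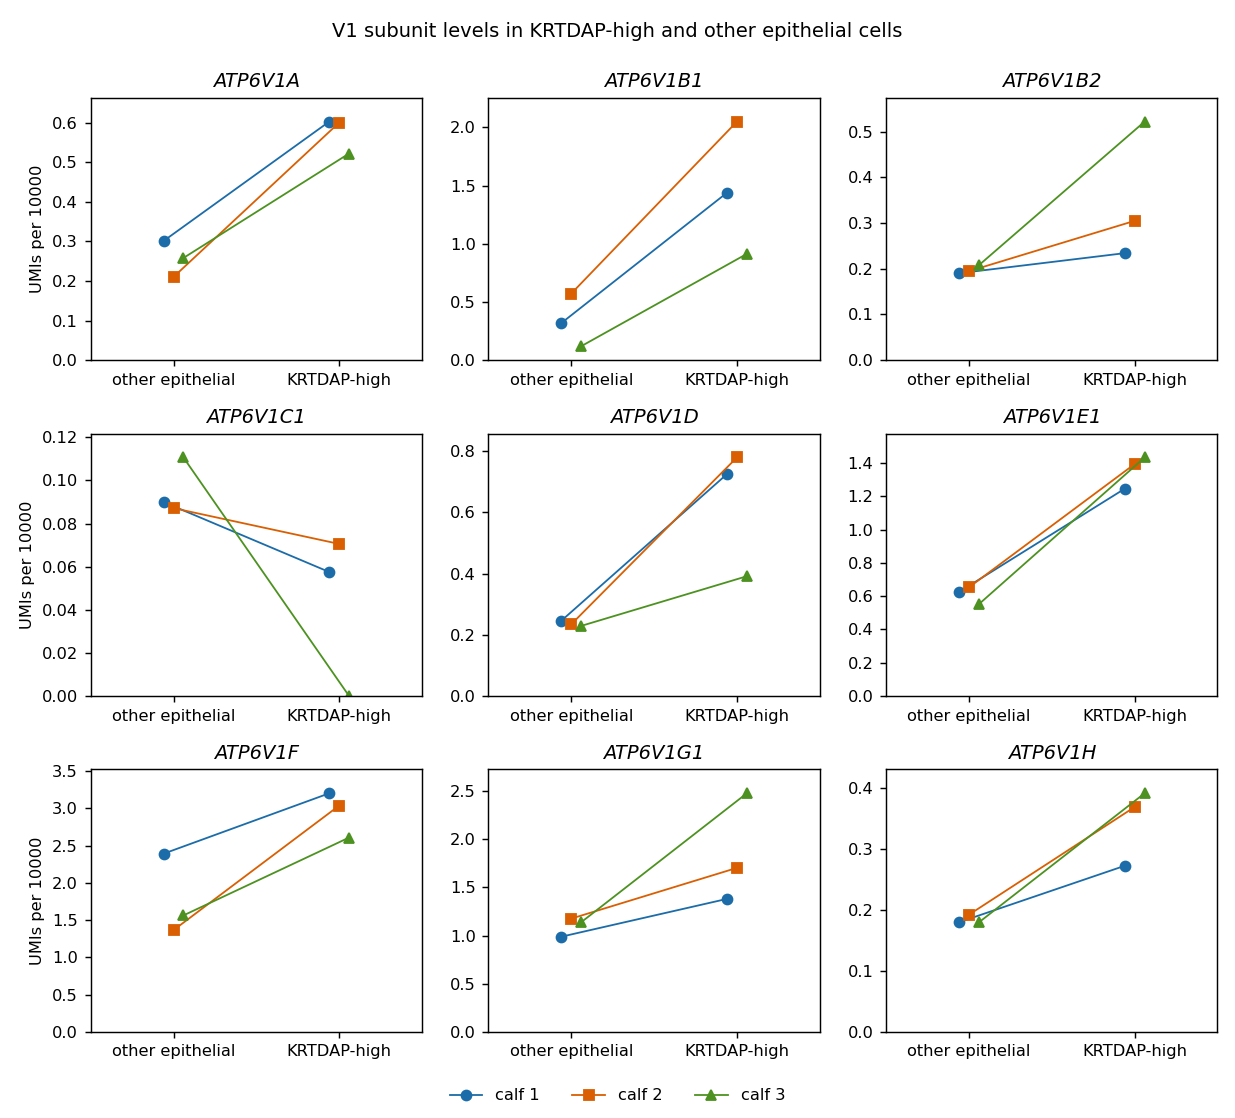
Levels of the 9 V1 genes in UMIs per 10000 (vertical axes, each starting at 0) in other epithelial and KRTDAP-high cells; each symbol is 1 calf and lines join the values of a calf. Lines rise in 8 panels and fall for ATP6V1C1, and the high value of calf 3 comes from 9 cells.

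In the fit of the 6 sums with the calf as a block, over 11776 genes, ATP6V1B1 was higher in KRTDAP-high cells by 2.26 on the log2 scale (standard error 0.264, adjusted p = 5.02e-16, edgeR). ATP6V1D rose by 1.71 (standard error 0.247, adjusted p = 1.33e-10, edgeR), ATP6V1A by 1.38 (standard error 0.245, adjusted p = 3.37e-07, edgeR) and ATP6V1E1 by 1.21 (standard error 0.247, adjusted p = 1.32e-05, edgeR). ATP6V1H, ATP6V1F, ATP6V1G1 and ATP6V1B2 rose by 0.96, 0.85, 0.73 and 0.71, with adjusted p of 0.00138, 0.00563, 0.0141 and 0.0267 (edgeR). ATP6V1C1 did not pass, with a difference of -0.33 (95% interval -1.04 to 0.37). Members higher were therefore 8 of 9, where 12.8% of all genes were higher and 29.1% were called in either direction (16.3% lower). The median difference of the members was 0.96, beside -0.12 over all genes tested.

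The higher and lower genes were 1511 and 1920, and with scaling to total UMIs 1318 and 2686, which moved the median of all genes to -0.28 and left 7 members higher. The p-values of this comparison rest on a spread shared across genes, with 2 residual degrees of freedom from the samples and a median of 23550 in total, and they are far smaller than 3 calves alone could give. The number of members called higher was 5 without the calf block, 4 when the thinned UMIs were summed, so that each cell had the same weight, 4 without calf 1, 3 without calf 2 and 7 without calf 3. In the same order, the genes called higher were 719 of 11776, 498 of 9515, 841 of 12294, 597 of 11978 and 1441 of 11994. The main fit called 1511 of 11776 higher, so calls fell for genes at large as well. ATP6V1B1, ATP6V1D and ATP6V1E1 were past the threshold in every alternative fit. ATP6V1B2 lost its call in most of them, with differences from 0.32 to 0.90, and ATP6V1H fell to 0.13 with thinned sums. ATP6V1A lost its call without calf 2 only.

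Summed over the 9 genes, the V1 level was 9.58 ± 0.636 UMIs per 10000 in KRTDAP-high cells and 4.79 ± 0.494 in other epithelial cells (SD, n = 3 calves). Immune cells stood at 9.20 ± 0.668. ATP6V1B1 was 86.0%, 87.1% and 63.6% of the B-subunit UMIs of high cells in calves 1, 2 and 3, against 62.6%, 74.6% and 36.5% in other epithelial cells. The counting intervals of the share did not overlap in calves 1 and 2, and in calf 3 the share in high cells came from 11 UMIs. In thinned cells UMIs of 3 or more of the 9 genes were found in 22.3% ± 10.9 of high cells and in 3.85% ± 0.781 of other cells. By calf the share in high cells was 11.5%, 22.1% and 33.3%, from 174, 244 and 9 cells.

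Levels along the KRTDAP count were compared in calves 1 and 2, while in calf 3 the classes held too few cells. They did not rise at each step for every gene. In calf 1, ATP6V1D was at 0.238 UMIs per 10000 in the 4122 epithelial cells without a KRTDAP UMI among 2000, at 0.433 with 1, at 0.458 with 2 or 3, at 0.797 with 4 to 9 and at 1.00 with 10 or more. In calf 2 the same classes gave 0.232, 0.305, 0.503, 0.764 and 0.975, an increase at each step. ATP6V1B1 went from 0.306 to 1.69 in calf 1 and from 0.553 to 2.20 in calf 2 between the lowest and the highest class, with a step down from 2.02 to 1.92 in calf 2 between 2 or 3 and 4 to 9 UMIs. ATP6V1G1 in calf 1 was at 0.991 without KRTDAP, at 0.910 with 1 UMI, at 0.896 with 2 or 3, at 1.11 with 4 to 9 and at 2.23 with 10 or more, so that its higher level lay in the upper classes. ATP6V1H in calf 1 was at 0.180, 0.168 and 0.181 in the 3 lowest classes and at 0.275 and 0.386 in the upper ones. The cells with 1 KRTDAP UMI, just below the gate, were at 0.623 and 1.06 for ATP6V1B1, between the values of the cells at 0 and those at 2 or 3, which were at 1.11 and 2.02.

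**Figure D4:**
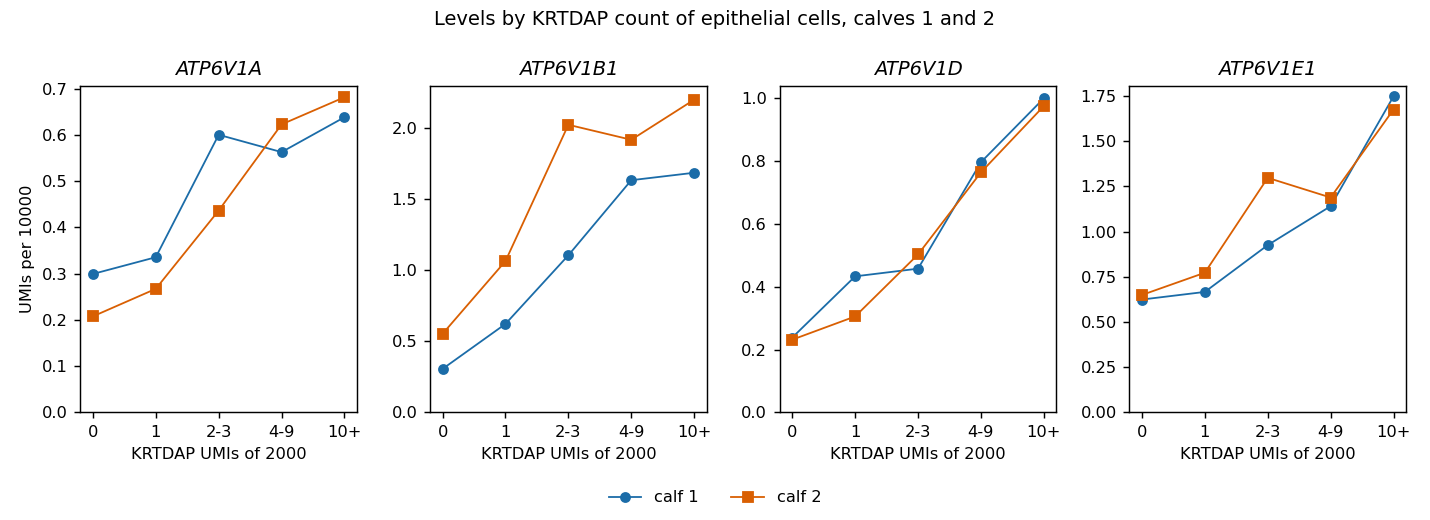
Levels of 4 V1 genes in UMIs per 10000 (vertical axes, each starting at 0) in epithelial cells grouped by KRTDAP UMIs among 2000 thinned UMIs (horizontal axes), with 1 symbol and line per calf. ATP6V1D climbs from 0.238 and 0.232 to 1.00 and 0.975 in calves 1 and 2.

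Of the 4 isoform genes outside the family list, ATP6V1C2, the alternative C subunit, was measured well enough to be tested. Its level was 0.115, 0.375 and 0.130 UMIs per 10000 in KRTDAP-high cells of calves 1, 2 and 3, from 30, 117 and 1 UMIs, against 0.00778, 0.00617 and 0.00889 in other epithelial cells. ATP6V1C2 rose by 5.11 on the log2 scale (standard error 0.371, adjusted p = 7.46e-41, edgeR) and was past the threshold in every alternative fit, between 4.03 and 5.80. While ATP6V1C1 did not pass, ATP6V1C2 made up 66.7% and 84.2% of the C-subunit UMIs of high cells in calves 1 and 2, against 7.96% and 6.61% in the other epithelial cells. The counting intervals of these shares were far apart in both calves, and in calf 3 a single UMI was counted. These intervals take UMIs of the same cell as independent, and few high cells held ATP6V1C2. At equal depth 1.72% and 4.51% of high cells in calves 1 and 2 had an ATP6V1C2 UMI, against 0.164% and 0.193% of other cells. Without thinning the shares of high cells were 5.17% and 16.8% for ATP6V1C2 and 8.62% and 8.61% for ATP6V1C1. ATP6V1C2 was also found in fibroblasts of calves 2 and 3, with 8 and 15 UMIs and levels of 0.101 and 0.149. ATP6V1G3 had no UMI in any class, and ATP6V1E2 and ATP6V1G2 had 77 and 23 UMIs in all epithelial cells.

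**Figure D5:**
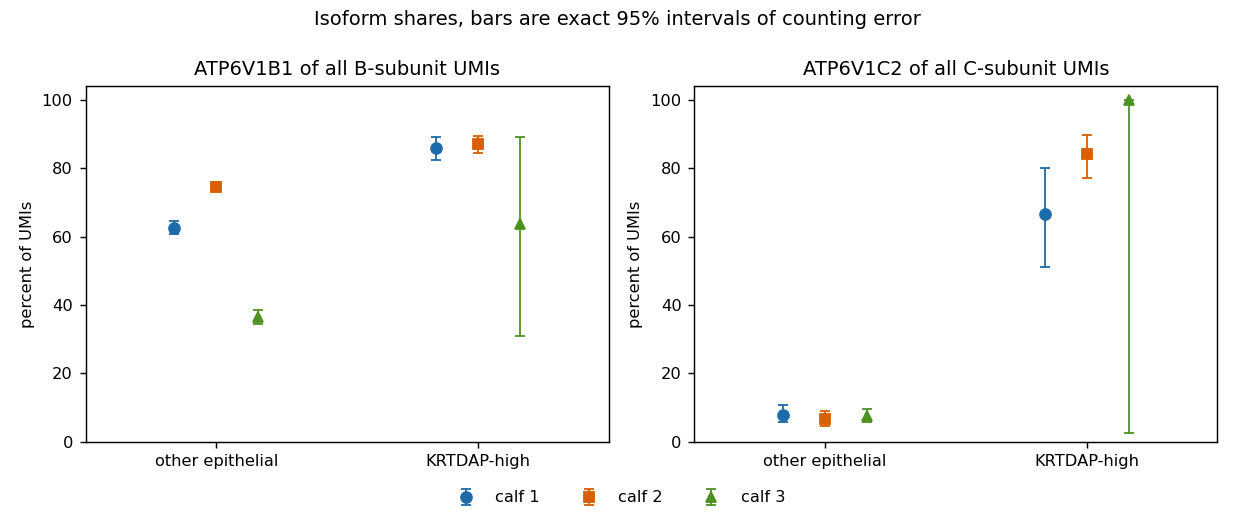
Share of ATP6V1B1 among ATP6V1B1 and ATP6V1B2 UMIs (left) and of ATP6V1C2 among ATP6V1C1 and ATP6V1C2 UMIs (right), in percent, in other epithelial and KRTDAP-high cells; symbols are calves and bars are exact 95% intervals. In calves 1 and 2 the ATP6V1C2 share is 66.7% and 84.2% in high cells and below 8% in other cells, and calf 3 has a single C-subunit UMI in its high cells.

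The summed level of the genes of the membrane sector V0 and its accessory genes ATP6AP1 and ATP6AP2 was 9.91 ± 0.582 UMIs per 10000 in KRTDAP-high cells. In other epithelial cells it was 6.34 ± 0.738 (SD, n = 3 calves). Of 12 V0 and accessory genes 10 were tested, and 5 were higher, 1 lower and 4 not called in KRTDAP-high cells, with a median difference of 0.57, where 12.8% of all genes were higher and 16.3% lower and the median of all genes was -0.12. ATP6V0A1, one of the alternative a subunits of V0, was at 0.460, 0.475 and 0.522 UMIs per 10000 in high cells against 0.134, 0.138 and 0.133 in others, and rose by 1.95 on the log2 scale (adjusted p = 3.15e-13, edgeR). Its value in the high cells of calf 3 came from 4 UMIs, and after thinning 0 of these 9 cells had one. TCIRG1, the a3 subunit known from osteoclasts, was at 0.111, 0.0481 and 0 against 0.210, 0.137 and 0.159, and fell by 1.04 (adjusted p = 0.0109, edgeR). The 0 in calf 3 allows up to 0.391, so the lower level is seen in calves 1 and 2. ATP6V0D1, the subunit that joins V0 to the rotor, rose by 1.45, and its level was 1.90, 1.94 and 1.57 against 0.808, 0.706 and 0.603. ATP6V0B, ATP6AP1 and ATP6AP2 rose by 0.84, 0.69 and 0.76. ATP6V0C, which encodes the proteolipid ring subunit, had 12 UMIs in all epithelial cells and ATP6V0D2 had 1, so neither could be compared. Endothelial, fibroblast and immune cells had 0 ATP6V0C UMIs, so the summed V0 level holds almost nothing of this subunit. Why its counts were this low was not tested.

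Of 14 lysosome genes tested, 6 were higher, none was lower and 8 were not called, with a median difference of 0.34, beside the same 12.8% higher and median of -0.12 over all genes. PSAP, the precursor of the saposins, rose by 1.98 and was at 4.73, 3.87 and 4.30 UMIs per 10000 in high cells against 1.30, 1.07 and 1.01. The cholesterol transporter gene NPC1 rose by 1.39, although it had no UMI in the high cells of calf 3. GRN, CTSD, CTSB and LAMP2 rose by 1.12, 0.91, 0.85 and 0.76. At equal depth the positive shares of PSAP, GRN, CTSD and LAMP2 were above those of other cells in each calf. For LAMP2 in calf 1 the difference was small, with 21.8% in high cells and 21.6% in other cells. CTSB and NPC1 had the higher share in high cells of calves 1 and 2, and 0 of 9 cells in calf 3. For NPC1 in calf 2 the shares were 0.4098% and 0.3972%. None of the 3 lysosomal transcription factor genes TFEB, TFE3 and MITF passed the threshold at the edgeR adjusted p. Among 9 Ragulator and Rag genes, whose products recruit mTORC1 to the lysosome, LAMTOR1 and LAMTOR3 rose by 0.62 and 0.99 and RRAGB fell by 0.82, while 6 were not called. Of 6 assembly and stability genes tested, TBC1D24 fell by 2.45 and 5 were not called.

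Between classes, 8 of 9 V0 and accessory genes tested, 9 of 12 lysosome genes and 5 of 7 assembly genes were lower in epithelial than in immune cells and none was higher, where 22.7% of all genes were lower. Against endothelial cells 4 of 9, 6 of 12 and 4 of 7 were lower, where 24.2% of all genes were, and against fibroblasts 3 of 9, 5 of 12 and 4 of 7, where 19.2% were. In counts this small, several of these are not far from the background. Ragulator and Rag genes went both ways: against immune cells 5 of 9 were lower and 2 higher, RRAGA by 0.97 and RRAGD by 1.73, against endothelial cells 2 were lower and RRAGD was higher by 2.80, and against fibroblasts none of the 9 was called. Of the 3 lysosomal transcription factor genes, TFE3 was higher by 0.67 and TFEB lower against endothelial cells, and MITF was lower against fibroblasts and against immune cells.

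Genes of acid-secreting cells were mostly at or near 0. FOXI1, the transcription factor of kidney intercalated cells and ionocytes, had 1 UMI in all epithelial cells. RHCG had 1 as well, and ASCL3, SLC26A4 and SLC4A1 had 0. CFTR, the chloride channel, had 209 UMIs in epithelial cells and rose by 1.40 in KRTDAP-high cells (adjusted p = 0.0337, edgeR). The high cells held 17 of its UMIs, and calf 3 had none in its high cells. At equal depth 0% of high cells had a CFTR UMI, against 0.168% of other epithelial cells. CA2, a carbonic anhydrase, had 385 UMIs in epithelial cells and did not pass in the KRTDAP comparison or against endothelial cells. It was lower in epithelial cells than in fibroblasts, by -3.41 on the log2 scale (adjusted p = 0.000277, edgeR). Against immune cells it was also called lower, by -4.24.

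Likeness of pattern was measured as Pearson's r of log2(CPM + 1) over 15 sums (KRTDAP-high epithelial, other epithelial, endothelial, fibroblast and immune cells in 3 calves), over 10259 genes. The sums share 3 libraries and differ widely in depth, so the values describe these sums only. For ATP6V1A the most alike gene was another member, ATP6V1H, with r = 0.928, followed by TMEM167A, TMCO1, VPS18 and METRNL from 0.867 to 0.859. The r of ATP6V1A with the other members ranged from -0.0352 for ATP6V1B1 to 0.657 for ATP6V1B2. The genes most alike ATP6V1B1 were CGN, which encodes a tight junction protein, with r = 0.979, ENSBTAG00000050611, TMEM79, KRT4 and SFN from 0.977 to 0.952. With the other members ATP6V1B1 had r from -0.749 for ATP6V1C1 to 0.321 for ATP6V1F.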

How the data were processed

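The deposited files hold UMI counts per gene and barcode, which the authors made with Cell Ranger 3.1.0 from reads aligned to the ARS-UCD1.2 cattle genome, without normalization. Barcodes were kept at 500 to 4000 genes, up to 50000 UMIs and a mitochondrial share up to 40% (4886, 10654 and 10480). The 13 mitochondrial protein genes defined that share. A score against simulated doublets, set at 0.8% per 1000 cells, removed 191, 908 and 879 barcodes. Cells were merged with a Harmony implementation (30 dimensions), clustered by Leiden at a resolution of 0.1 without any ATP6 gene or TCIRG1, and the 8 clusters were named from marker lists. Levels, thinning to 2000 UMIs and the gate of 2 KRTDAP UMIs are as given above. Deposited counts were summed per calf and class or gate and tested with edgeR 4.0.16 (R 4.3.3; TMM, filterByExpr, quasi-likelihood test, Benjamini-Hochberg threshold of 0.05). The procedure was tested on simulated data.

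The calf entered as a block because the groups compared came from the same animals. In all, 2 forms of the quasi-likelihood fit were run, the default of the tool and the bias-adjusted one, and the default was kept with both results known. Members called higher in KRTDAP-high cells were 8 and 7 in these forms, and members lower in epithelial cells were 2 and 1 against endothelial cells and 7 and 6 against immune cells; the other member counts were the same in both.

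DESeq2 1.42.0, other filters, gates, seeds and normalizations, and the omission of each calf were tried as alternatives. The bias-adjusted fit, scaling to total UMIs, the thinned sums, the fit without the myofibroblast-led cluster and the split of immune cells were chosen after seeing the data. Members and gene lists were chosen with earlier results of these data known. The 9 members are named whatever their values; genes of the other lists are named where past the threshold in the KRTDAP comparison or at or near 0, and for ATP6V1A and ATP6V1B1 the 5 most alike genes are given. Isoform shares and the other names singled out were chosen after values were seen.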

Additional observations from a re-analysis of the deposited data

How the results depend on the processing

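ATP6V1B1 kept its direction and its side of the threshold under every alternative in all 4 comparisons, and so did ATP6V1D and ATP6V1E1 in KRTDAP-high cells. Counts of genes called moved by over 1.5 times in these cases: KRTDAP-high cells gave 3431 genes, but 1772 by DESeq2, 1416 with no replicate block, 1020 with thinned sums and 1150 to 3008 when a calf was left out. The other comparisons gave 2790 to 4939 genes against endothelial cells, 1967 to 4104 against fibroblasts and 2290 to 5375 against immune cells when a calf was left out. Fewer samples entered those fits. The genes tested in them were 11528 without calf 1, 10951 without calf 2 and 7674 without calf 3, against 10259 in the main fit. With no replicate block the 8 members called higher in KRTDAP-high cells became 5, and the 2 called lower against endothelial cells became 0. Thinned sums gave 4 higher, and leaving out a calf gave 3 to 7. Members called lower against endothelial cells were 1 in the bias-adjusted fit, with marker-gated classes and with no filter, 3 by DESeq2, 5 with total UMIs and 0 to 2 without a calf. Against fibroblasts they were 2 with DESeq2 size factors or by DESeq2, 0 with no filter, 4 with total UMIs and 0 to 1 without a calf. Members called higher against fibroblasts were 2 instead of 1 without the myofibroblast-led cluster. Against immune cells the members called lower were 2 to 7 without a calf. The cause of these changes was not tested.

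Differences changed sign in these cases, none past the threshold. Against endothelial cells ATP6V1A was -0.24 with total UMIs and -0.0300 without calf 1 (up to 0.35 when another calf was left out), ATP6V1B2 was -0.0231 with total UMIs and ATP6V1H was 0.0401 without calf 3 (down to -0.23). ATP6V1F was -0.20 against fibroblasts with total UMIs. Without the myofibroblast-led cluster ATP6V1A was 0.0182 and ATP6V1D 0.0568 against fibroblasts. Against immune cells ATP6V1F was -0.0817 when sums of under 30 cells were left out, -0.11 with marker-gated classes and -0.0107 by DESeq2. There ATP6V1F was also -0.28 with total UMIs and -0.14 without calf 1 (up to 0.26). ATP6V1C1 in KRTDAP-high cells was 0.0709 with another seed, 0.0395 without thinning in the gate, 0.0437 at 4 KRTDAP UMIs and 0.16 at 20% mitochondrial UMIs. Of 936 recomputed levels and shares, 841 moved by less than the SD between calves. In calf 3 the 9 KRTDAP-high cells, and in calf 1 the 24 fibroblasts and 10 immune cells, limit what depth can show.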

Other observations

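The immune cells were divided by a UMI of TYROBP, a myeloid adaptor gene, or of CD3E, a gene of the T-cell receptor complex, a division made after the data were seen and given without a test. In calf 3, 316 cells had TYROBP and 132 had CD3E UMIs, with median depths of 6648 and 3055 UMIs. ATP6V1B2 was at 0.718 UMIs per 10000 in the TYROBP cells and 0.211 in the CD3E cells. ATP6V1D was at 0.901 and 0.379, and ATP6V1C1 at 0.511 and 0.253. ATP6V1E1 went the other way, at 1.28 and 1.52. In calf 2, with 40 and 10 cells, ATP6V1B2 was at 0.661 and 0.426 while ATP6V1D was at 0.413 and 0.639. ATP6V1E1 was at 2.40 and 1.28 there, so the order of ATP6V1D and that of ATP6V1E1 were not the same in both calves.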
